A study of Homo sapiens with 6 samples.

Results

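Transcript levels of 8 genes of alkylation repair and mismatch repair were described in 3 glioblastoma cell lines, first between the lines and then after transfection with a miR-338-5p mimic. The genes were MGMT, ALKBH2, ALKBH3, MPG, MSH3, MSH6, PMS1 and PMS2. They were found by their symbols in the array annotation and are 8 of 19423 genes or gene sets named by at least 1 probe set. All 8 lay above the filter on low values (a mean level of 4.28 on the log2 scale over the 6 arrays), which left 14567 genes or gene sets for testing. Probe sets of the Affymetrix Human Gene 1.0 ST array carry short oligonucleotides spread over a gene's exons, and levels are log2 values after RMA, a background correction, normalization and summary of those probes.

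T98G, U87MG and A172 are established cell lines grown from glioblastoma, a malignant tumour of the brain, and came from a cell bank per the labels. Each line gave 1 array 24 hours after transfection with pre-miR338-5p, a precursor that yields the microRNA (called the mimic here), and 1 array after the same step with the study's negative control. All 3 lines are thus transfected in both groups, and each pair of arrays has no replicate of its own. The study looked for targets of this microRNA per its deposited design. No array of temozolomide-treated or untransfected cells was analysed here, and the labels do not say whether an array came from 1 culture or a pool, so p-values measure only the spread between these arrays.

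Temozolomide, the alkylating drug used in glioblastoma, places methyl groups on DNA bases. MGMT is a suicide enzyme that takes the methyl group off the O6 position of guanine onto itself, the AlkB homologues ALKBH2 and ALKBH3 remove methyl groups from ring nitrogens of adenine and cytosine by oxidation, and the glycosylase MPG cuts out methylated purines and so opens base excision repair. Guanine that keeps its O6 methyl group pairs with thymine, and the mismatch repair system, which then works on the pair again and again, turns the lesion into a lethal break. MGMT silencing by promoter methylation is therefore associated with response to the drug and loss of mismatch repair with resistance. T98G is widely described as an MGMT-expressing, temozolomide-resistant line, and U87MG and A172 as lines with a methylated MGMT promoter.

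The sequences shown are the transfected microRNA, since it defines the groups, and the region in front of MGMT. MGMT was chosen since promoter methylation is what the gene is known for in glioblastoma. Mature miR-338-5p lies at chr17:81125923-81125944 on the minus strand of GRCh38.p14 and has 22 bases, with its seed, bases 2 to 8, in capitals. The 250 bases before the start of MGMT lie at chr10:129466991-129467240 on the plus strand of GRCh38.p14, and capitals mark each CpG, the dinucleotide at which promoters are methylated. Both come from RefSeq. The MGMT window stops before the annotated start, so CpG inside the gene are not shown.
hsa-miR-338-5p: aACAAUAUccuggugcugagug
MGMT, bases before the start: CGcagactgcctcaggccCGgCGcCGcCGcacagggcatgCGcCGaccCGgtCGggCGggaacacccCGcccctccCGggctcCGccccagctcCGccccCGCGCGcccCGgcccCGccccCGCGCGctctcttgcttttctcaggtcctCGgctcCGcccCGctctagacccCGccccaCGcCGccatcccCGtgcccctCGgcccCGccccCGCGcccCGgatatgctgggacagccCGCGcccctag

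The MGMT window held 36 CpG dinucleotides, the most in the windows of the 8 genes, against a median of 11 over 35116 windows of the same length. A share of 4.85% of all windows held as many or more. MGMT also had 8 copies of GGGCGG, counted on both strands as GGGCGG or CCGCCC, a motif that 42.6% of windows hold at least once. Neither CCAAT (or ATTGG, 32.0% of windows) nor TATAAA (or TTTATA, 10.7% of windows) was found in it. For the other genes the count was 30 CpG for MSH3, 32 for PMS1, 27 for MPG, 19 for ALKBH2 and 18 for ALKBH3. MSH6 had 4 annotated starts with 21 to 34 CpG, and PMS2 had 2 starts with 20 and 22. In that build the windows of the other genes lie on chromosome 12 (ALKBH2), 11 (ALKBH3), 16 (MPG), 5 (MSH3), 2 (MSH6 and PMS1) and 7 (PMS2). DNA methylation was not measured on these arrays, so the windows describe sequence only.

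Pairs of arrays from 1 line had r of 0.992 to 0.993, and pairs from different lines 0.954 to 0.962. Among glial markers VIM read 11.88 to 12.65 and CD44 11.48 to 11.90 on all arrays, while GFAP, the defining marker of astrocytes, was at 5.07 to 5.39 and S100B and AQP4 lay below the filter. SLC1A3, a glutamate transporter of astrocytes, averaged 6.17 in T98G, 7.96 in U87MG and 3.90 in A172, and NES, an intermediate filament of progenitors, averaged 5.20 in T98G, 5.51 in U87MG and 7.22 in A172. The 10 glial markers summed to 59.6 to 60.4 in T98G, 62.0 to 63.0 in U87MG and 60.7 to 61.2 in A172. Below the filter also lay 4 of 6 leukocyte markers, PTPRC among them. The same held for 3 of 5 endothelial, 1 of 5 epithelial and 0 of 5 neuronal markers. The leukocyte marker CD68 lay above it and averaged 8.34 in T98G, 10.35 in U87MG and 8.36 in A172. The endothelial marker TEK averaged 4.005 in T98G, 4.27 in U87MG and 6.27 in A172. KDR, also endothelial, lay below the filter by its mean, but averaged 3.29 in T98G, 5.80 in U87MG and 3.61 in A172. Summed over its 5 genes, the epithelial list stood at 27.9 to 28.1 in T98G, 27.4 to 28.3 in U87MG and 35.4 to 35.9 in A172, led by the keratin KRT8, which averaged 5.52 in T98G, 5.01 in U87MG and 10.45 in A172. EPCAM averaged 3.78 in T98G, 4.79 in U87MG and 4.43 in A172, with a mean of 4.33, near the filter level. The neuronal list summed to 26.6 to 26.7 in T98G, 27.5 to 28.0 in U87MG and 31.0 to 31.6 in A172, but its members went different ways. The neurofilament gene NEFL averaged 4.59 in T98G, 4.20 in U87MG and 10.89 in A172. SNAP25 averaged 5.83 in T98G, 8.01 in U87MG and 4.72 in A172, and MAP2 averaged 7.29 in T98G, 5.15 in U87MG and 4.18 in A172. The leukocyte list summed to 26.5 to 26.7 in T98G, 28.0 to 28.2 in U87MG and 28.1 to 28.7 in A172, and the endothelial list to 19.0 to 19.5 in T98G, 22.0 to 22.5 in U87MG and 21.4 to 21.6 in A172. None of these markers passed for the mimic. The part of these marker differences in the line differences below was not tested. In bulk RNA of a cell line, fewer cells with a transcript and less of it per cell cannot be told apart.

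MGMT was higher in T98G than in both other lines, and U87MG and A172 were not told apart. Its level was 6.02 with the mimic and 6.14 with the control in T98G. U87MG had 4.88 with the mimic and 5.15 with the control, and A172 had 5.07 with the mimic and 5.11 with the control. The T98G arrays lay above every array of the other lines without overlap. T98G exceeded U87MG by 1.06 ± 0.10 on the log2 scale (SE), or 2.09-fold, with an adjusted p of 0.000202 in limma's fit, and exceeded A172 by 0.99 ± 0.10, or 1.99-fold, with an adjusted p of 0.000255. U87MG minus A172 was -0.07, with a 95% interval from -0.30 to 0.16. On the control arrays alone T98G stood 0.99 above U87MG and 1.03 above A172. The deposited table gives no detection call, so whether the MGMT signal in U87MG and A172 was above background was not tested.

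The lines differed in most genes, so the background for these calls is high. In limma's F test over the 3 lines, 5 of the 8 genes passed (MGMT, ALKBH2, MPG, PMS1 and PMS2), against 67.4% of all tested genes and gene sets. T98G minus A172 passed for 4 of the 8, against 50.4% of all. U87MG minus A172 also passed for 4, against 54.1%, and T98G minus U87MG for 3, against 46.8%. These counts read PMS2 from its brightest probe set, which it shares with pseudogenes. On the probe set annotated to PMS2 alone, T98G minus U87MG passed as well (adjusted p = 0.00552 in limma's fit). The share of genes called in the repair set was thus near the background in each comparison. The median range of line means was 0.40 over the 8 genes and 0.53 over all tested, and 21.5% of all had a range as large as that of MGMT (1.06).

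**Figure D1:**
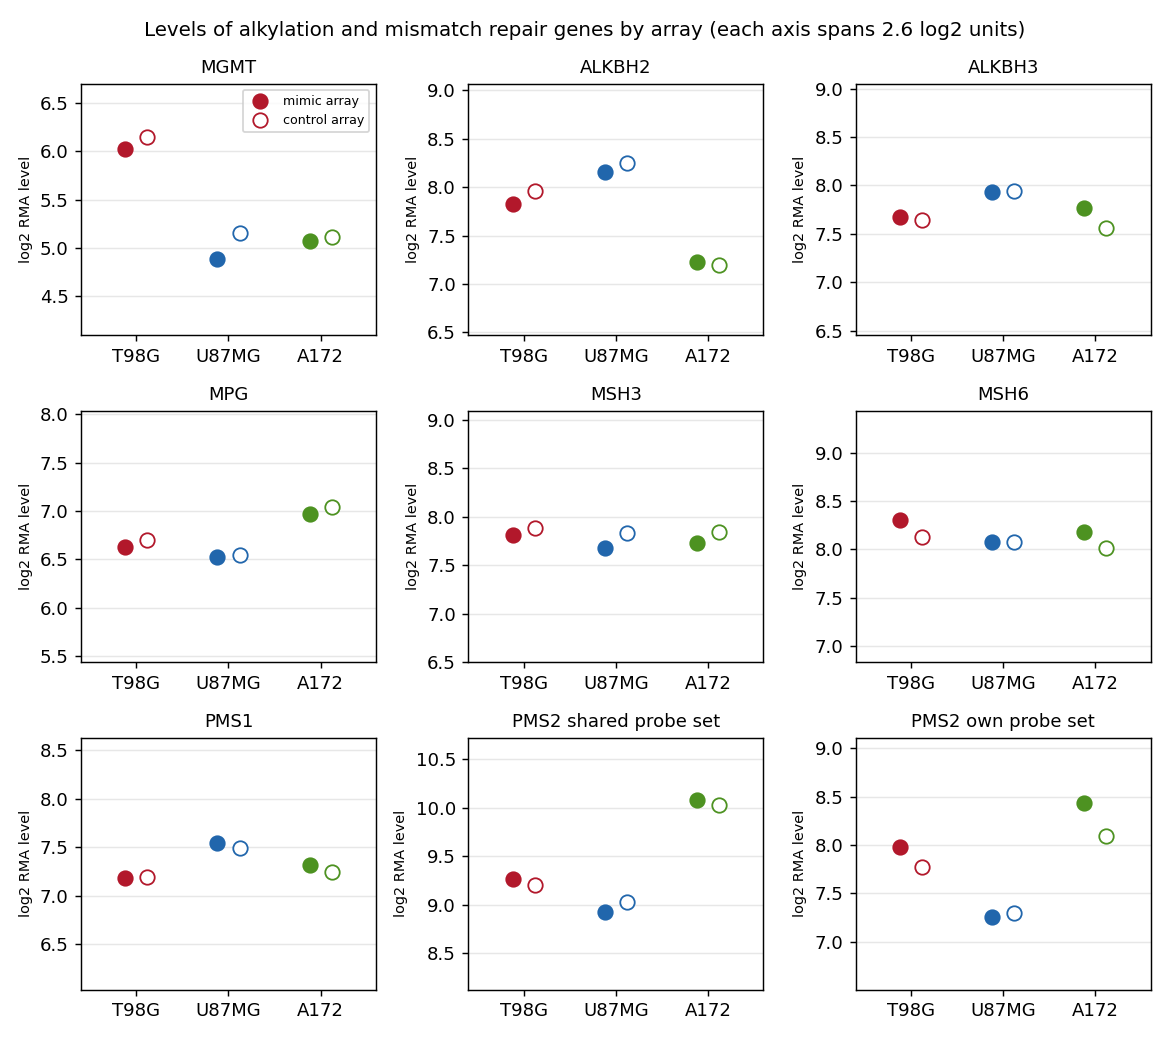
Levels of the 8 genes on the 6 arrays, 1 panel per gene and 2 panels for the probe sets of PMS2, with the log2 RMA level on the vertical axis and the cell line on the horizontal axis. Filled points are mimic arrays and open points control arrays. MGMT stands at 6.02 and 6.14 in T98G and at or below 5.15 in U87MG and A172, while MSH3 spans only 7.68 to 7.88 over all arrays.

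The profile of MGMT over the lines was shared by other genes. T98G above both other lines, with U87MG and A172 not called apart, was found for 830 of the 14567 tested, or 5.70%. The 5 genes with the closest profile over the 6 arrays, by the Euclidean distance of levels centred on each gene's own mean, were BCKDHB at 0.14, PRDX1 at 0.15, MRE11 at 0.16, ICOSLG at 0.17 and LRRC41 at 0.17, where a flat profile would lie 1.21 away from MGMT. BCKDHB is a subunit of branched-chain keto acid dehydrogenase, PRDX1 a peroxidase, and MRE11 the nuclease of the double-strand break sensor. MRE11 averaged 7.02 in T98G, against 5.88 in U87MG and 5.92 in A172. The 6 arrays share 3 lines, so profiles alike in this measure are those in which T98G stands apart. Of the coding genes on either side of MGMT, MKI67, a proliferation marker, differed by 0.04 between T98G and A172 (adjusted p = 0.727) and was highest in U87MG, by 0.66 over A172 (adjusted p = 0.00122). EBF3, a transcription factor gene, averaged 4.28 in T98G, 4.47 in U87MG and 4.27 in A172, all near the filter level of 4.28, so no comparison with MGMT is drawn from it.

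ALKBH2, which acts mainly on double-stranded DNA, was lowest in A172. Its level was 7.82 with the mimic and 7.96 with the control in T98G. In U87MG it was 8.16 with the mimic and 8.25 with the control. In A172 it was 7.23 with the mimic and 7.19 with the control. The 3 lines did not overlap, and how many of all tested did the same was not counted. A range of line means as large as that of ALKBH2 (0.99) was found for 23.9% of all tested. U87MG exceeded A172 by 0.99 ± 0.09 (SE), or 1.99-fold (adjusted p = 0.000205), and T98G exceeded A172 by 0.68 ± 0.09, or 1.6-fold (adjusted p = 0.00114). T98G minus U87MG was -0.31 ± 0.09 (adjusted p = 0.0327, but 0.0545 with no filter on low values). The order U87MG, T98G, A172 with each step called was found for 3.65% of all tested. The next gene along the chromosome, UNG, the glycosylase for uracil in DNA, passed in none of the line comparisons, at -0.19 for T98G minus A172 (adjusted p = 0.125) and -0.07 for U87MG minus A172 (adjusted p = 0.52). The closest profiles to ALKBH2 were SAV1 and PARK7, both at 0.08, CAPZB, BRMS1 and POP5, where a flat profile lay at 1.02.

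ALKBH3, which prefers single-stranded DNA, did not pass the F test over the lines (adjusted p = 0.0582). It stood at 7.68 with the mimic and 7.64 with the control in T98G. The values were 7.93 with the mimic and 7.95 with the control in U87MG, and 7.76 with the mimic and 7.55 with the control in A172. Both U87MG arrays were above the other 4, and how many of all tested did the same was not counted. A range of line means as large as that of ALKBH3 (0.28) was found for 75.2% of all tested. U87MG exceeded A172 by 0.28 ± 0.10 (SE; adjusted p = 0.0484 in limma's fit), a call lost with no filter (0.0752) and with quantile normalization repeated (0.0867). The difference was 0.39 on the control arrays alone and 0.17 on the mimic arrays alone. T98G minus U87MG was -0.28 (adjusted p = 0.0545) and T98G minus A172 0.00 with an interval from -0.23 to 0.23. The neighbouring gene HSD17B12, an enzyme of very long chain fatty acid synthesis, was lower in T98G than in A172, with a difference of -2.14 (adjusted p = 8.93e-06).

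The ASCC proteins form a helicase complex that unwinds DNA for ALKBH3. Transcript levels of all 3 tested ASCC genes differed between lines by the F test, which 67.4% of all tested passed. ASCC2 exceeded A172 by 1.17 in T98G (adjusted p = 9.55e-05) and by 0.75 in U87MG (adjusted p = 0.000608). ASCC3, the helicase, was higher in U87MG than in A172 by 0.56 (adjusted p = 0.00303) and did not pass in T98G at -0.01. ASCC1 went the other way, with -0.42 for U87MG minus A172 (adjusted p = 0.00684) and -0.25 for T98G minus A172 (adjusted p = 0.0526). Of 7 further AlkB family genes 6 passed the F test, against the same 67.4%. T98G minus A172 was called higher for 3 and lower for 2 of them, and U87MG minus A172 higher for 3 and lower for 1. ALKBH8, a tRNA modification enzyme, exceeded A172 by 1.20 in T98G (adjusted p = 0.000135) and by 1.18 in U87MG (adjusted p = 0.000133). FTO, an RNA demethylase, exceeded A172 by 1.07 in T98G (adjusted p = 0.000181) and by 0.87 in U87MG (adjusted p = 0.000409). ALKBH1 exceeded A172 by 0.54 in T98G (adjusted p = 0.00319) and by 1.04 in U87MG (adjusted p = 0.000166). ALKBH8, FTO and ALKBH1 were lowest in A172, as ALKBH2 was, a pattern that 15.3% of all tested showed. ALKBH7, a mitochondrial member, was highest in A172, with -0.30 for T98G minus A172 (adjusted p = 0.0408) and -0.33 for U87MG minus A172 (adjusted p = 0.0274). ALKBH6 was lower in T98G than in A172, at -0.50 (adjusted p = 0.0149), and differed by -0.00 between U87MG and A172.

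MPG, the glycosylase for methylated purines, was highest in A172. Levels were 6.63 with the mimic and 6.70 with the control in T98G, 6.53 with the mimic and 6.54 with the control in U87MG, and 6.96 with the mimic and 7.05 with the control in A172. Both A172 arrays lay above the other 4, which was not counted over all tested. In limma's fit A172 was called above both other lines for 14.6% of all tested. A range of line means as large as that of MPG (0.47) was found for 55.3%. U87MG minus A172 was -0.47 ± 0.09 (SE; adjusted p = 0.00406) and T98G minus A172 was -0.34 ± 0.09 (adjusted p = 0.0165). T98G minus U87MG was 0.13, with an interval from -0.08 to 0.34. The closest profiles were H1-9P, PTOV1, RPAIN, CDK16 and NTN1, at 0.04 to 0.09, where a flat profile lay at 0.49. Marker sums of the epithelial list, led by KRT8, and of the neuronal list were highest in A172 too. KRT18, KRT19, NEFL, RBFOX3 and SYT1 were also highest in A172, and SNAP25 and MAP2 were not. EPCAM and CDH1 were not highest there either, but lay near or below the filter level. A part of these markers in the level of MPG was not tested. NPRL3, a regulator of mTORC1 that overlaps MPG in the annotation, was lower in U87MG than in A172 by a larger amount, with a difference of -2.10 (adjusted p = 7.58e-05), and differed by -0.24 between T98G and A172 (adjusted p = 0.249).

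**Figure D2:**
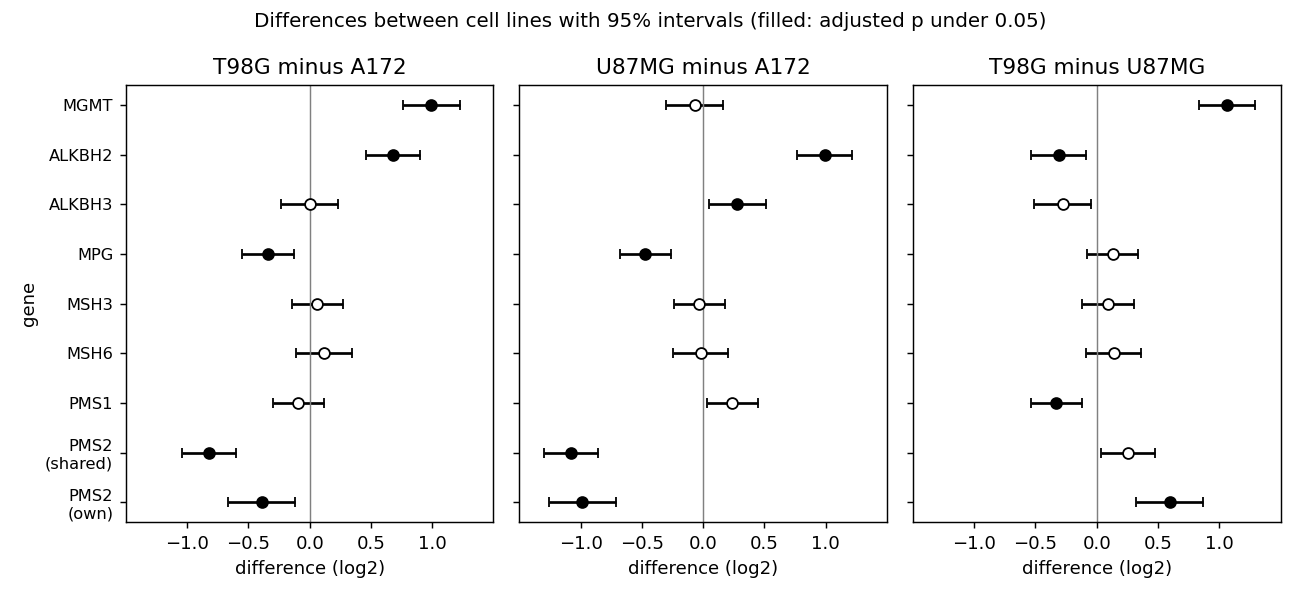
Differences between the lines for each gene, with the log2 difference on the horizontal axis and 1 panel per pair of lines. Points are limma estimates from all 6 arrays, bars are 95% intervals, and filled points passed at an adjusted p under 0.05. MGMT is set apart in both comparisons that hold T98G, at 0.99 and 1.06, and MSH3 and MSH6 have intervals over 0 in all 3 panels.

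The other base excision repair genes differed between lines in 16 of 20 measured members by the F test, against 67.4% of all tested. NEIL3, a glycosylase for oxidized bases, was higher in T98G than in A172 by 1.38 (adjusted p = 0.000139) and than in U87MG by 0.77 (adjusted p = 0.00197). TDP1, which frees DNA ends from stalled topoisomerase, was lower in T98G, at -1.16 against A172 (adjusted p = 0.000102) and -1.65 against U87MG (adjusted p = 2.18e-05). POLB, the gap-filling polymerase, was lower in U87MG than in A172, at -1.08 (adjusted p = 0.00031), and MBD4, a glycosylase for thymine opposite guanine, was lower than in A172 in both, at -0.98 in T98G and -0.80 in U87MG (adjusted p = 0.000266 and 0.000626). APTX, which cleans blocked ends, was higher in U87MG than in A172 by 0.70 (adjusted p = 0.00132).

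MutS proteins recognise the mismatch, and the transcripts of MSH6 and MSH3, which encode subunits of them, did not pass a line comparison. MSH6, the subunit for single mispairs including those of methylated guanine, stood at 8.31 with the mimic and 8.13 with the control in T98G. It had 8.08 on both U87MG arrays, mimic and control, and 8.18 with the mimic and 8.02 with the control in A172. The A172 arrays spanned both U87MG arrays and reached into the range of T98G, whose arrays lay above those of U87MG. The largest difference, T98G minus U87MG, was 0.14 with an interval from -0.09 to 0.37. MSH3, the subunit for insertion and deletion loops, ran at 7.81 with the mimic and 7.88 with the control in T98G, 7.68 with the mimic and 7.83 with the control in U87MG, and 7.73 with the mimic and 7.84 with the control in A172. All 3 lines overlapped. The line means of MSH3 spanned 0.09, a range that 95.8% of all tested matched or exceeded, and its largest difference was 0.09 with an interval from -0.12 to 0.30. FBXO11, the ubiquitin ligase gene next to MSH6, differed by -0.29 between U87MG and A172 (adjusted p = 0.0294, but 0.093 with arrays centred on their medians).

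MutL proteins act after recognition, and the transcripts of PMS1 and PMS2, which encode subunits of them, passed the F test over the lines. PMS1, whose role in repair is minor, was at 7.19 on both T98G arrays, mimic and control. It was at 7.55 with the mimic and 7.49 with the control in U87MG, and at 7.31 with the mimic and 7.25 with the control in A172. The 3 lines, with 2 arrays each, did not overlap, and how many of all tested did the same was not counted. The line means of PMS1 spanned 0.33, a range that 69.2% of all tested matched or exceeded. T98G minus U87MG was -0.33 ± 0.09 (SE; adjusted p = 0.0208), U87MG minus A172 was 0.24 (adjusted p = 0.0573) and T98G minus A172 was -0.09 (adjusted p = 0.42). The F test for PMS1 passed at an adjusted p of 0.0316 and did not with no filter (0.0548). ORMDL1, a regulator of sphingolipid synthesis and the neighbour of PMS1, was also lower in T98G than in U87MG, at -0.51 (adjusted p = 0.0151), and lower than in A172, at -0.42 (adjusted p = 0.0283). The closest profiles to PMS1 were TRIAP1, DTX3, RNASEH1, DPH3P1 and CACTIN-AS1, at 0.07 to 0.09, where a flat profile lay at 0.34.

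PMS2, the endonuclease subunit of mismatch repair, has many pseudogenes, and 8 of the 9 probe sets annotated to it name 10 to 13 symbols, many of them PMS2 pseudogenes. The brightest, with 11 symbols, cannot separate PMS2 from these copies. It read 9.27 with the mimic and 9.20 with the control in T98G, 8.93 with the mimic and 9.03 with the control in U87MG, and 10.08 with the mimic and 10.03 with the control in A172. The probe set annotated to PMS2 alone read 7.98 with the mimic and 7.77 with the control in T98G, 7.26 with the mimic and 7.29 with the control in U87MG, and 8.44 with the mimic and 8.09 with the control in A172. On both, all A172 arrays were highest and all U87MG arrays lowest, an order of arrays that was not counted over all tested. A range of line means as large was found for 21.1% of all tested for the shared probe set (1.08) and 24.1% for the other (0.99).

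For the PMS2 probe set of its own, U87MG minus A172 was -0.99 ± 0.11 (SE; adjusted p = 0.000508), T98G minus A172 was -0.39 ± 0.11 (adjusted p = 0.0275), and T98G minus U87MG was 0.60 ± 0.11 (adjusted p = 0.00552). The shared probe set gave -1.08 for U87MG minus A172 (adjusted p = 0.000141), -0.82 for T98G minus A172 (adjusted p = 0.000497) and 0.26 for T98G minus U87MG (adjusted p = 0.0618). T98G thus stood closer to U87MG on the shared probe set and closer to A172 on the probe set of PMS2 alone. Over all 8 shared probe sets T98G minus A172 ran from -0.99 to -0.82 and U87MG minus A172 from -1.17 to -1.08. The closest profiles to the shared probe set were PTH1R, FGFR4, SCAMP5, PTP4A3 and SCYL2, at 0.10 to 0.13 (flat at 1.13), and PRUNE1, at 0.15, was closest to the PMS2 probe set of its own (flat at 1.03). As for MPG, the epithelial and neuronal marker sums were highest in the same line, A172, and their part in the level of PMS2 was not tested.

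Of the later mismatch repair genes, such as the clamp, its loader, the exonuclease and the polymerase, 13 of 18 tested passed the F test, against 67.4% of all tested, and MSH4 lay below the filter. MLH3, a further MutL subunit, differed most, at 1.76 for U87MG minus A172 (adjusted p = 2.2e-05), 0.66 for T98G minus A172 (adjusted p = 0.00166) and -1.10 for T98G minus U87MG (adjusted p = 0.000189). EXO1, the exonuclease that removes the mismatched strand, was higher in T98G, by 1.03 over U87MG (adjusted p = 0.000423) and 0.74 over A172 (adjusted p = 0.00169). RPA2, a subunit of the single-strand binding protein, was higher in U87MG than in A172 by 1.10 (adjusted p = 0.000152). Outside repair, all 6 tested genes of a list linked to temozolomide response passed the F test, which 67.4% of all tested did, and 0 passed for the mimic, against 1.06% of all (ABCG2 alone had an unadjusted p under 0.05 in limma's fit). ABCG2, a drug efflux pump, averaged 7.76 in T98G and 6.48 in U87MG. In A172 it averaged 3.97, below the filter level of 4.28, so no size is given for its difference from that line. CDKN1A, the cell cycle inhibitor p21, was lower in T98G than in A172, at -2.24 (adjusted p = 0.000211).

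**Figure D3:**
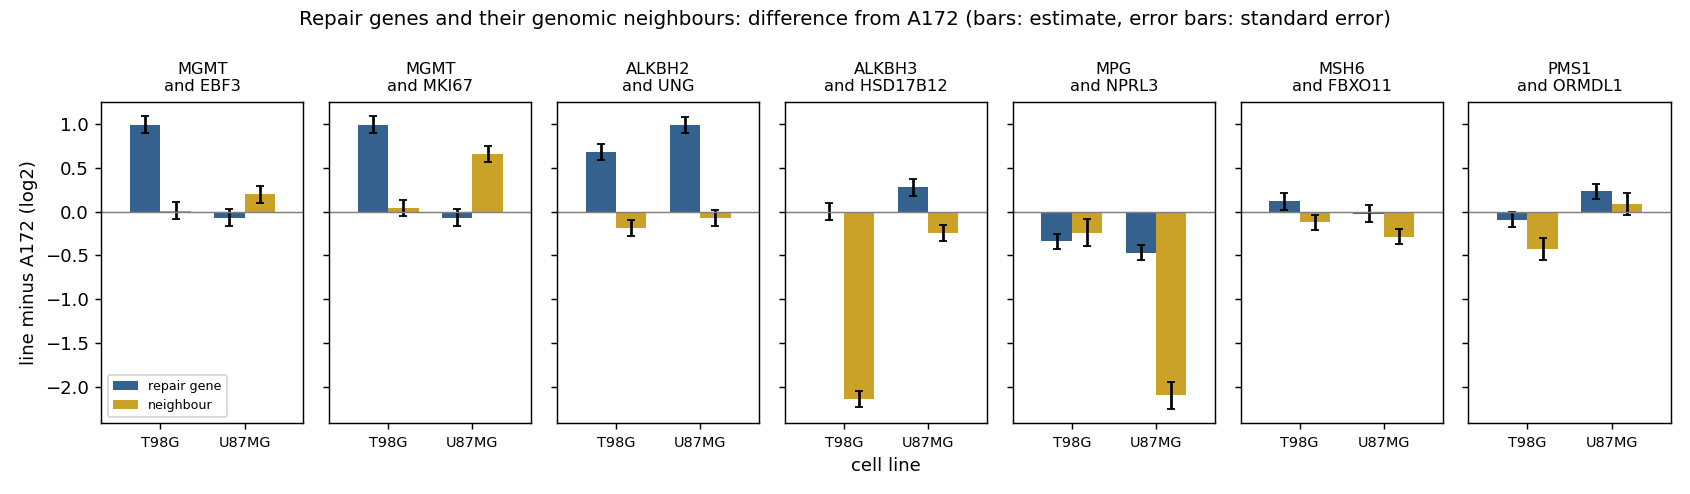
Differences of T98G and U87MG from A172 for repair genes (blue) and the coding genes that flank or overlap them (yellow), on the log2 scale. Bars are limma estimates and error bars standard errors. MGMT differs by 0.99 in T98G where MKI67 differs by 0.04, EBF3 lies near the filter level in all lines, and HSD17B12 differs by -2.14 where ALKBH3 differs by 0.00.

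After the mimic, none of the 8 genes passed the test, and the differences were small. Mimic minus control was called for 0 of 8 in limma's fit with the line as a block, with 0 at an unadjusted p under 0.05 and a lowest adjusted p of 0.549, against 1.06% of all tested (155 of 14567). The mean change ran from -0.15 to 0.12 over the 8 genes read from their brightest probe set, with a median of -0.03, against 0.01 over all tested. On the probe set annotated to PMS2 alone it was 0.17, outside that range. Within a line no gene moved by 0.5 or more, against 3.67% of all in T98G, 3.18% in U87MG and 3.61% in A172, and none of the 8 read from their brightest probe set moved by 0.3. For comparison, PPP2R5A, a published target of this microRNA from this study, fell to 5.77 with the mimic against 7.41 with the control in T98G, to 5.67 against 7.11 in U87MG and to 5.17 against 6.81 in A172 (-1.57 ± 0.11, SD, n = 3; adjusted p = 0.00219). The study may have chosen it on these arrays, so its fall is not independent evidence.

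MGMT averaged 5.32 ± 0.61 with the mimic and 5.47 ± 0.58 with the control (SD, n = 3 each), with T98G the highest in both groups. Within the lines its difference was -0.12 in T98G, -0.27 in U87MG and -0.04 in A172, with a mean of -0.15 ± 0.11 (SD, n = 3; adjusted p = 0.549) and a 95% interval from -0.33 to 0.04. The largest difference came from U87MG, a line with low signal, and without U87MG the mean was -0.08. All 3 lines had a lower value, as did 15.8% of all tested. The interval does not show that MGMT was unaltered, and since a signal above background was not tested in U87MG and A172, it sets no firm limit on a loss in those lines.

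MSH3 and MPG were also lower in every line without passing. MSH3 differed by -0.07 in T98G, -0.15 in U87MG and -0.12 in A172 (mean -0.11 ± 0.04, SD, n = 3; adjusted p = 0.612). MPG differed by -0.08 in T98G, -0.01 in U87MG and -0.08 in A172 (mean -0.06 ± 0.04, SD, n = 3; adjusted p = 0.81). ALKBH2 had a mean of -0.07 ± 0.09 (adjusted p = 0.797), from -0.14 in T98G to 0.04 in A172. No gene of the 8 was higher in all 3 lines, as 18.4% of all tested were.

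MSH6 differed by 0.18 in T98G, -0.00 in U87MG and 0.17 in A172, a mean of 0.12 ± 0.10 (SD, n = 3; adjusted p = 0.637). ALKBH3 had 0.04 in T98G, -0.02 in U87MG and 0.21 in A172 (mean 0.07 ± 0.12; adjusted p = 0.776). PMS1 averaged 0.04 ± 0.04 (adjusted p = 0.884). PMS2 averaged 0.01 ± 0.09 on the shared probe set (adjusted p = 0.987) and 0.17 ± 0.19 on its own (adjusted p = 0.554), where T98G had 0.20, U87MG -0.04 and A172 0.34. The 95% interval of that probe set, from -0.05 to 0.39, was the widest among the 9.

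**Figure D4:**
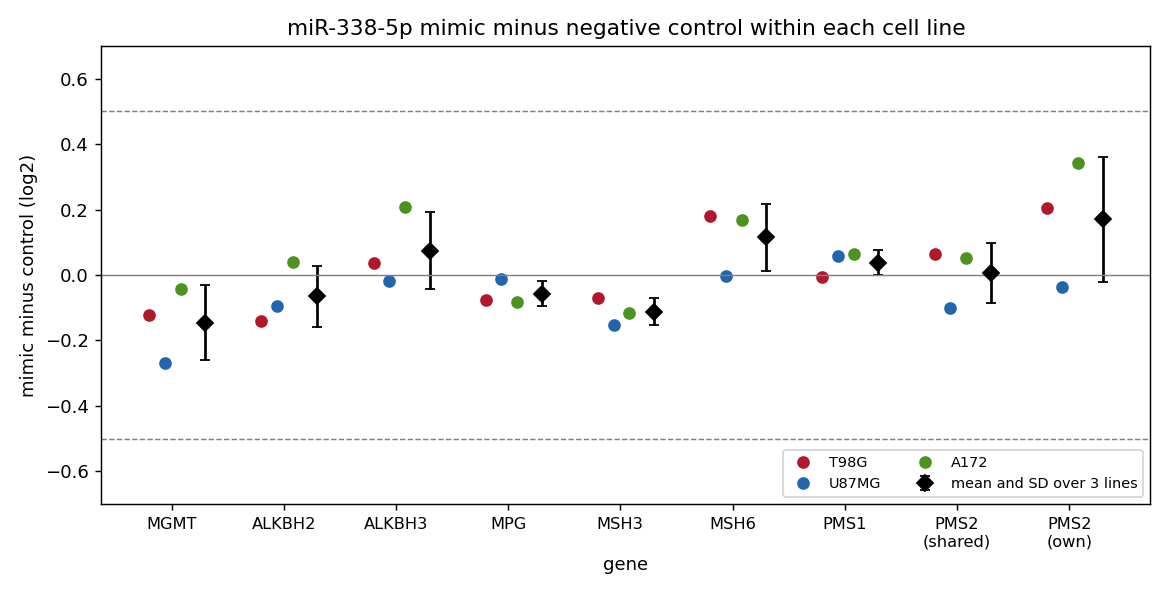
Mimic minus control on the log2 scale for each gene, by cell line (coloured points) and as the mean with the SD over the 3 lines (black diamonds). Dashed lines mark 0.5 in either direction. All points lie between -0.27 and 0.34, and MGMT, MPG and MSH3 are below 0 in all lines.

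Among the other repair genes 1 passed for the mimic. Of 48 tested genes, from 52 listed, of the AlkB family, the ASCC complex, base excision repair and later mismatch repair, 1 fell, 0 rose and 47 did not pass, against 1.06% of all tested called in either direction. The median was 0.04, and 8 of the 48 had an unadjusted p under 0.05, as did 11.6% of all tested. The gene that fell was RFC3, a subunit of the loader of the PCNA clamp, which stood at 8.70 with the mimic against 9.41 with the control in T98G, 8.88 against 9.45 in U87MG and 8.27 against 8.73 in A172 (-0.58 ± 0.12, SD, n = 3; adjusted p = 0.0331). RFC3 did not pass with no filter (0.0701) or without any 1 line (0.0738 to 0.202). Without the line as a block its adjusted p was 1.00. The next largest differences in later mismatch repair were POLD3, a polymerase subunit, at 0.32 (adjusted p = 0.131) and RFC1 at 0.30 (adjusted p = 0.156).

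In base excision repair 0 of 20 tested genes passed in limma's fit, with TDG, SMUG1, XRCC1 and TDP1 at an unadjusted p under 0.05. TDG, which removes thymine opposite guanine, differed by -0.43 ± 0.21 (SD, n = 3; adjusted p = 0.145), at -0.67 in T98G, -0.34 in U87MG and -0.28 in A172. SMUG1, a uracil glycosylase, had 0.32 ± 0.31 (adjusted p = 0.381), with 0.67 in A172, and TDP1 had 0.21 ± 0.08 (adjusted p = 0.351). The AlkB family genes other than ALKBH2 and ALKBH3 ranged up to 0.16 for ALKBH4 (adjusted p = 0.493), and the ASCC genes lay between -0.07 for ASCC1 and 0.05 for ASCC3.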

How the data were processed

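Gene expression was measured on 6 arrays, 3 with the mimic and 3 with the control. Per the submitters' processing notes, the authors made the deposited log2 values by RMA, using oligo under R 3.0.1. Scan dates were not used here, so no batch was tested. The log2 values of 33297 probe sets were used as deposited.

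In the platform annotation 19461 probe sets had a single symbol, 1753 had more, and 12083 were not listed. Symbols were updated by gene identifier to RefSeq (GRCh38.p14), with 19429 matched, 31 not, and 1 whose several symbols became a single one. Probe sets sharing a symbol set were reduced to the brightest by mean. The lowest 25% were then left out. Differences were tested across all 14567 genes by limma 3.58.1 (R 4.3.3, moderated two-sided tests, called at an adjusted p under 0.05 after Benjamini-Hochberg), with line and group as additive terms. The line pairs the arrays, as the labels give it, and deviations from group means correlated within a line at r from 0.950 to 0.958. The fit was tested on simulated data. The number of arrays limits the precision.

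Members, gene lists and the naming rule were chosen with earlier results of these data known. All 8 genes were named. From each other repair list, genes past the threshold for the mimic and the 3 largest differences in each comparison could be named, besides neighbouring genes, the study's targets, markers by range, and the 5 closest profiles to each gene that differed between lines. KRT8, KRT18, KRT19, EPCAM, CDH1, NEFL, RBFOX3, SYT1, SNAP25, MAP2, SLC1A3, NES, CD68, TEK, KDR, XRCC1 and ALKBH7 were named after their values were seen. Genes not named by a 1-symbol probe set were not analysed here.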

Additional observations from a re-analysis of the deposited data

Results flagged for a closer look

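Mimic minus control had both signs over the lines for several repair genes, with 1 pair of arrays per line, so the difference between lines was not tested. The gap between the highest and the lowest line was 0.378 on the log2 scale for the PMS2 probe set of its own (0.34 in A172 and -0.04 in U87MG), 0.226 for ALKBH3, 0.184 for MSH6, 0.18 for ALKBH2, 0.165 for the shared PMS2 probe set and 0.0701 for PMS1. Both signs were also seen in 65.8% of all tested genes and gene sets.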

How the results depend on the processing

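The mimic called 155 genes or gene sets in the paired fit and 0 with no replicate block for the cell line (131 at an unadjusted p under 0.05 in limma), where PPP2R5A and RFC3 lost their calls too (adjusted p = 1.00 for both). The count was 54 with no filter, 358 with the lowest 50% left out, 243 with arrays centred on their medians and 464 with a variance prior that follows expression. Leaving out 1 line gave 2 to 127, with 2 without U87MG and 44 without A172. None of the 8 repair genes passed for the mimic in any of these. MGMT in T98G stayed above both other lines under each alternative in which it was measured, and fell under the filter with the lowest 50% left out, so that it has no value there. Signs turned only for values near 0 that had not passed. The shared PMS2 probe set had a mimic change of -0.0110 with centring, -0.0186 without A172 and -0.0240 without T98G. U87MG minus A172 was 0.0265 for MSH3 and 0.0372 for MSH6 with centring, and T98G minus A172 was -0.0530 for ALKBH3 with quantile normalization repeated. Mimic arrays alone were added after seeing the data. With 2 arrays per line and no detection calls, low signal and few arrays limit the line differences of MGMT in U87MG and A172.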
